A study of Mus musculus with 28 samples.

Results

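The genes of the major histocompatibility complex (MHC) and of antigen presentation were followed through a mouse model of nonalcoholic steatohepatitis (NASH), in which a fatty liver becomes inflamed and scarred. Members were every gene whose symbol starts with H2-, the mouse MHC prefix, together with B2m, Cd74, Tap1, Tap2, Tapbp, Psmb8, Psmb9, Psmb10, Ciita and Nlrc5. The rule found 54 of the 47719 genes listed. Of these, 39 belong to class I or its peptide supply and 14 to class II, while H2-Ke6 carries the prefix for its map position and was set apart. The rule used symbols and no measured value.

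RNA was sequenced from the livers of 28 male C57BL/6 mice in 7 groups of 4, and the labels number the samples of a group as replicates. The lean control group (Normal_control) was fed a control food in which fat supplied 10% of energy, free of added fructose and cholesterol. These mice started at about 6 weeks of age, with no feeding time or dosing listed for them. In all other groups fat supplied 40% of energy, with 22% fructose and 2% cholesterol by weight. They ate this for 26 weeks from about 6 weeks of age and were then dosed by mouth once a day for 4 weeks. The drug groups received obeticholic acid (OCA), a bile acid derivative, at 25 mg/kg, or tropifexor (LJN452), which is not a bile acid. Tropifexor doses are read here as 0.1 mg/kg for the low group, 0.3 mg/kg for mid and 0.9 mg/kg for high, an order that no label states. Both drugs activate FXR, the nuclear receptor for bile acids. Each drug has a vehicle group of its own on the NASH diet (VEH_OCA and VEH_LJN452). The titles name these groups as vehicle although their treatment field lists the drug, and the titles were followed. The deposited tables give 1 value per group and none per animal, so the spread between animals enters through the authors' own test and no single mouse can be inspected.

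MHC class I molecules are built from a heavy chain and the light chain encoded by B2m, and present peptides from inside the cell to CD8 T cells on nearly all nucleated cells. The immunoproteasome subunits Psmb8, Psmb9 and Psmb10 cut those peptides, Tap1 and Tap2 pump them into the endoplasmic reticulum, Tapbp (tapasin) bridges the pump to the empty class I molecule, and Nlrc5 is the coactivator of class I transcription. Class II molecules are pairs of an alpha and a beta chain on macrophages, dendritic cells and B cells, and present peptides from engulfed material to CD4 T cells. The invariant chain Cd74 holds the class II groove closed until it is degraded, H2-DM exchanges the remaining fragment for a peptide, H2-DO restrains H2-DM, and Ciita is the coactivator that switches the class II genes on.

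Most members lie side by side on chromosome 17. In the annotation of build GRCm38, class II genes run from H2-DMa (chr17:34119541-34139101, plus strand) through H2-Ab1 (chr17:34257689-34269419, plus strand) and H2-Aa (chr17:34282744-34287823, minus strand) to H2-Eb1 (chr17:34305867-34316674, plus strand). The class I gene H2-K1 lies to one side (chr17:33996017-34000347, minus strand), and H2-D1 (chr17:35262730-35267499, plus strand), H2-Q10 (chr17:35470089-35474563, plus strand) and H2-T23 (chr17:36029773-36032855, minus strand) to the other. Ciita is on chromosome 16 (chr16:10480059-10528418, plus strand), B2m on chromosome 2 (chr2:122147686-122153083, plus strand) and Nlrc5 on chromosome 8 (chr8:94434356-94527272, plus strand). All are annotated as protein-coding.

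The promoters of 5 genes are shown because their genes carry the contrasts described below: H2-Aa, H2-Eb1 and H2-DMb2 for class II, and H2-K1 and H2-Q10 for class I. Each stretch of 140 bases comes from RefSeq promoters of build GRCm38.p6 and reads toward the gene. It ends 1 base before the annotated start, or 14 bases before it for H2-DMb2. Capitals mark the Y box, ATTGG, read on either strand (CCAAT on the other). The stretches lie at chr17:34287824-34287963 (minus strand) for H2-Aa, chr17:34305727-34305866 (plus) for H2-Eb1, chr17:34145096-34145235 (plus) for H2-DMb2, chr17:34000348-34000487 (minus) for H2-K1 and chr17:35469949-35470088 (plus) for H2-Q10.
H2-Aa: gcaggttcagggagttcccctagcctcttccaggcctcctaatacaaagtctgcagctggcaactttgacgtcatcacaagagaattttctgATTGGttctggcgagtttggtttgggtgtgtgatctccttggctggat
H2-Eb1: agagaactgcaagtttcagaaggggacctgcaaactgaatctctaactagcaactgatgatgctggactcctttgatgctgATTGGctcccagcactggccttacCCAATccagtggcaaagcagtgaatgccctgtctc
H2-DMb2: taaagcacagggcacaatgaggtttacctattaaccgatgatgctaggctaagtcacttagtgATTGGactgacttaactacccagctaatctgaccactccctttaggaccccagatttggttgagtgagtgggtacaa
H2-K1: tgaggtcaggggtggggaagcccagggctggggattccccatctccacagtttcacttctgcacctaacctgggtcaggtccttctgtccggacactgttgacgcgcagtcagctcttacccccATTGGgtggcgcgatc
H2-Q10: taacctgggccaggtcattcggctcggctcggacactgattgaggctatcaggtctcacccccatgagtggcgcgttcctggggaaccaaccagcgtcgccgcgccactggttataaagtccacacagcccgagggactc
The Y box is where NF-Y binds, one of the factors on which Ciita and Nlrc5 assemble. It lies 48 bases before the start of H2-Aa, 59 and 35 before H2-Eb1, 90 before H2-DMb2 and 16 before H2-K1, and was not in the H2-Q10 stretch. Over the 250 bases before each start, it was found in 8 of 9 class II and 25 of 30 class I promoter windows, against 33.8% of 32851 mouse promoters. Those windows belong to 8 class II and 28 class I genes. The X box, bound by the RFX complex and searched on both strands, was in 0.609% of all promoters, in the class II promoters of H2-DMb1 and H2-Ob, and in the class I promoters of H2-D1, H2-M3, H2-Q4, H2-Q6 and H2-Q7. For the interferon-stimulated element, a single fixed pattern was searched. Its exact match was in 2.98% of all promoters, in none of the class II windows and in those of B2m, H2-T22 and H2-T23. Other forms of the element were not searched, so the H2-K1 window, which lacked this match, may still hold one. A STAT element, TTCNNNGAA, was in 7.02% of all promoters, in that of H2-DMb2 and in those of H2-M3, H2-M11 and Psmb8. The longest run shared by the H2-Eb1 and H2-DMb2 stretches was GATGATGCT, and H2-K1 and H2-Q10 shared TAACCTGGG. These matches describe letters, not bound sites, and a window without an exact match may still hold a variant of the element.

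Levels are FPKM (fragments scaled to transcript length and library size), so they can be set side by side between genes of 1 table. Tables were scaled separately, and a group's value shifts slightly from table to table. Tests are the authors' Cuffdiff tests, and a gene is called, and said to rise or fall, at a deposited q under 0.05. Standard errors (SE) are those implied by the deposited fold change and statistic, rescaled to the deposited p. The smallest p in every table was 5e-05, so the smallest q of a table recurs among strongly changed genes. Of the 54 members, 40 had enough fragments to be tested in at least 1 table (28 class I, 11 class II and H2-Ke6), and 36 in all 10. The 14 never tested reached at most 0.172 FPKM, in H2-Q3, and 4 of them (H2-Ea-ps, H2-M1, H2-M9 and H2-M10.5) were listed at 0 in every table. H2-Ea-ps is the alpha chain partner of H2-Eb1, and C57BL/6 mice are known to lack its promoter. In these livers all 8 hepatocyte markers were tested, with a summed level between 57800 and 95300 FPKM. Of 5 known FXR targets, Slc51b, Cyp8b1, Nr0b2 and Cyp7a1 were called in all 4 drug groups, while Abcb11, the bile salt export pump, was called only at the mid (2.18) and high (2.14) doses and not with OCA (0.76, q = 0.229) or the low dose (0.90, q = 0.154) in the authors' deposited tables. The log2 fold change of Slc51b, a bile acid exporter subunit, was 2.72 for OCA and 5.38, 6.01 and 6.08 for low, mid and high tropifexor in the authors' deposited tables. Cyp8b1, a bile acid synthesis enzyme, gave -2.95, -6.68, -5.04 and -8.55 in the same order in the authors' deposited tables, so these targets do not all rank the mid dose between low and high.

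The class II pathway was higher in both vehicle groups on the NASH diet than in lean control. The vehicle groups were also dosed by mouth, while no dosing or feeding time is listed for lean control. Diet, vehicle dosing and any difference in age therefore cannot be told apart, and diet is used below as the name of these comparisons. In both diet comparisons H2-Aa, H2-Ab1, H2-Eb1, Cd74, H2-DMa, H2-DMb1 and Ciita rose, 7 of the 10 class II genes tested, against 11.4% of all tested genes called higher in the OCA vehicle comparison and 12.1% in the tropifexor vehicle comparison. No class II gene fell, against 6.56% and 8.53% of all genes. The median class II log2 fold change was 1.41 and 1.24, beside 0.02 and 0.01 over all tested genes. In bulk liver RNA, a change in the number of cells of a type and a change in RNA per cell cannot be told apart.

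Among the chains, H2-Aa stood at 54.8 FPKM in lean control and 175 in the OCA vehicle group, and at 55.1 and 164 in the tropifexor vehicle comparison, in the authors' deposited tables. These are 3.19-fold and 2.98-fold increases (log2 1.68 ± 0.129 and 1.58 ± 0.136, rescaled SE, n = 4 mice a group, Cuffdiff q = 0.000588 and 0.000507 in the authors' deposited tables). Its partner H2-Ab1 went from 42.1 to 113 FPKM and from 42.4 to 102, and H2-Eb1, a beta chain, from 33.7 to 103 and from 33.9 to 96.4, in the authors' deposited tables. Cd74 was the most abundant class II gene at 128 FPKM in lean control and reached 335 and 298 in the vehicle groups of the authors' deposited tables. Over the 3 chains, Cd74, H2-DMa and H2-DMb1, the rise was 2.62-fold to 3.19-fold in the OCA vehicle group and 1.9-fold to 2.98-fold in the tropifexor vehicle group.

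The peptide editors were far scarcer than the chains. H2-DMa went from 4.12 to 10.9 FPKM and from 4.14 to 7.86, and H2-DMb1 from 2.61 to 8.31 and from 2.62 to 7.82, in the authors' deposited tables. Ciita, the regulator, was the lowest of the called genes, with 0.508 FPKM in lean control against 1.71 (q = 0.000588) and 0.511 against 1.37 (q = 0.00832) in the authors' deposited tables. The 3 tested genes that were not called were H2-DMb2, a second DM beta chain, and the DO subunits H2-Oa and H2-Ob. All stayed below 1 FPKM in the groups of both diet comparisons; H2-Oa was at 0.307 and 0.527 FPKM (q = 0.109) and H2-Ob at 0.553 and 0.534 (q = 0.97) in the authors' deposited table for the OCA vehicle group. Of 50-base stretches of the longest H2-DMb1 transcript, 27.2% also occur in H2-DMb2, so reads may be split between these genes, while H2-Ab1, H2-Eb1, Cd74, H2-DMa and Ciita share none with any other gene. Between the diet effects of the vehicle groups, no difference was called in the 10 class II or 25 class I genes tested (0 at an unadjusted p under 0.05, normal test with Benjamini-Hochberg adjustment over 15230 genes), where 0.184% of all genes were called higher and 0.197% lower. Both use the same lean mice.

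**Figure D1:**
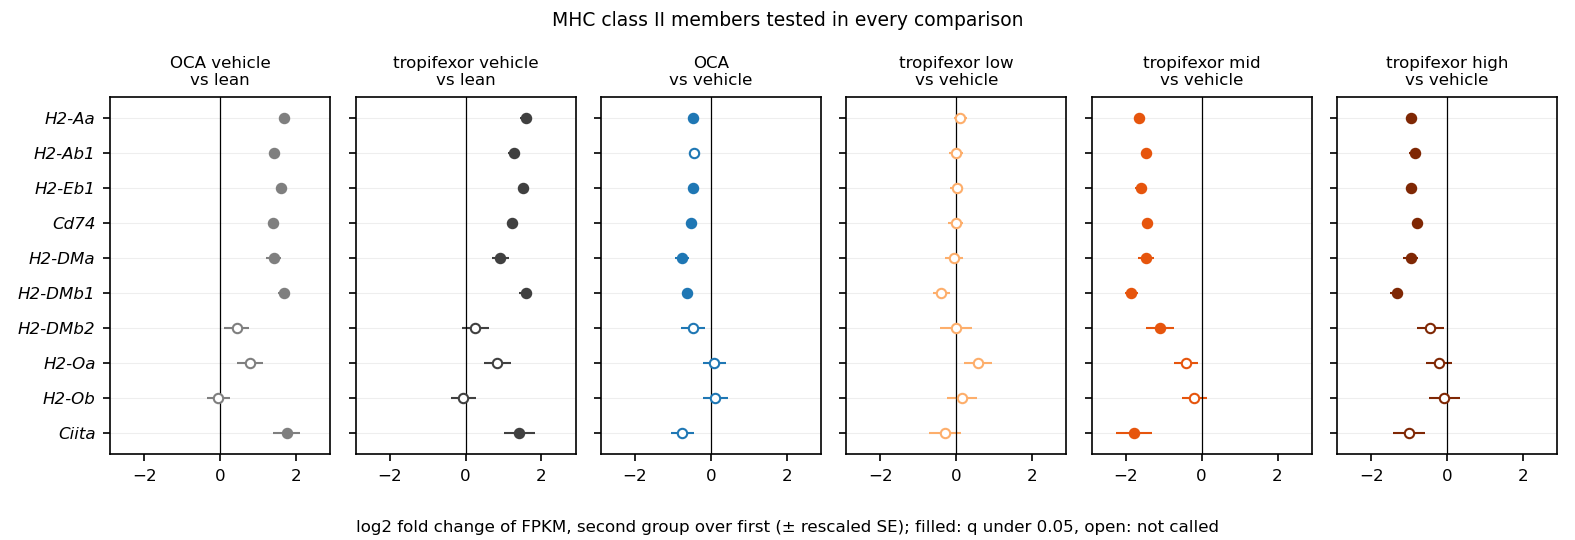
Log2 fold change of FPKM, second group over first, for the tested class II genes in the diet and drug comparisons. Points are group comparisons of 4 mice against 4, bars the rescaled SE, filled points q under 0.05. H2-Aa lies at 1.68 and 1.58 for the diet, near 0 for low tropifexor (0.11), at -1.64 for mid and at -0.95 for high.

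OCA lowered class II modestly. Cd74, H2-Aa, H2-DMa, H2-DMb1 and H2-Eb1 fell, 5 of 10 tested against 2.23% of all genes called lower, and none rose, against 1.81%. H2-Aa was at 187 FPKM with vehicle and 135 with OCA (1.39-fold lower, log2 -0.47 ± 0.138, q = 0.0201), and Cd74 at 357 and 248 (1.44-fold lower, q = 0.0214), in the authors' deposited table. The editor H2-DMa had the largest called fall, from 11.7 to 6.9 FPKM (1.69-fold lower, q = 0.00681 in the authors' deposited table). H2-Ab1 pairs with H2-Aa on the cell surface but missed the threshold, at 120 and 88.7 FPKM (q = 0.0858), as did Ciita at 1.82 and 1.08 FPKM (q = 0.218), in the authors' deposited table. The median over the 10 genes was -0.48, beside -0.01 over all genes.

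Low-dose tropifexor left no class II call. Of 11 class II genes tested, 0 rose and 0 fell by the Cuffdiff q, and 0 had an unadjusted p under 0.05, against 6.03% of all genes called higher and 5.2% lower. H2-Aa was at 187 FPKM with vehicle and 202 at the low dose (log2 0.11 ± 0.183, q = 0.861), and H2-Ab1 at 116 and 115 (q = 0.992), in the authors' deposited table. The gene with the lowest value among them, H2-DMb1, was at 8.91 and 6.79 FPKM (log2 -0.39 ± 0.212, q = 0.303) in the authors' deposited table. The median was -0.01, beside -0.00 over all genes.

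The mid dose gave the deepest class II values of the 4 drug groups. Here 8 of 10 tested genes fell, the 7 that the diet had raised and H2-DMb2, against 15.7% of all genes called lower, and none rose, against 11.8%. H2-Aa went from 164 to 52.5 FPKM (3.11-fold lower, log2 -1.64 ± 0.137, q = 0.000361) and Cd74 from 297 to 110 (2.7-fold lower, q = 0.000361) in the authors' deposited table. H2-DMb1 had the largest fall of the chains, chaperone and editors, from 7.8 to 2.16 FPKM (3.62-fold lower), in the authors' deposited table. Ciita fell too, from 1.36 to 0.397 FPKM (3.43-fold lower, q = 0.00367 in the authors' deposited table), and H2-DMb2 from 0.792 to 0.372 (q = 0.0101 in the authors' deposited table). The DO subunits were not called, with H2-Oa at 0.553 and 0.416 FPKM (q = 0.393) and H2-Ob at 0.533 and 0.467 (q = 0.755) in the authors' deposited table. The class II median was -1.46, beside -0.01 over all genes.

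The high dose lowered Cd74, H2-Aa, H2-Ab1, H2-DMa, H2-DMb1 and H2-Eb1, 6 of 10 tested, against 15.5% of all genes called lower, and none rose, against 9.93%. H2-Aa went from 170 to 88 FPKM (1.93-fold lower, log2 -0.95 ± 0.135, q = 0.000396) and H2-Eb1 from 99.9 to 51.5 (1.94-fold lower, q = 0.000396) in the authors' deposited table. H2-DMb1 again had the largest called fall, from 8.12 to 3.22 FPKM (2.52-fold lower) in the authors' deposited table. Ciita was at 1.42 and 0.709 FPKM and missed the threshold (q = 0.0884 in the authors' deposited table). The median was -0.90, beside -0.05 over all genes.

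The order of the doses was tested on the difference of their effects. The high dose lowered class II more than the low dose: H2-Aa differed by -1.06 (log2, 95% interval -1.51 to -0.62), H2-Eb1 by -0.97, H2-DMb1 by -0.94, H2-Ab1 by -0.84 and Cd74 by -0.78, 5 of 10 genes against 4.17% of all genes lower and 1.46% higher. The mid dose lay below the low dose in 6 of 10 genes, by -1.75 (-2.20 to -1.30) in H2-Aa and by -1.40 to -1.62 in Cd74, H2-Ab1, H2-DMa, H2-DMb1 and H2-Eb1, against 6.57% of all genes lower and 3.69% higher. The high dose lay above the mid dose in H2-Aa by 0.69 (0.31 to 1.06), in H2-Eb1 by 0.66 and in Cd74 by 0.64, 3 of 10 genes against 0.872% of all genes higher and 1.45% lower. Both comparisons with the mid dose were added after its low values were seen, and all 3 doses share 1 vehicle group, whose values enter both effects while the test treats them as independent. With the wider, unscaled SE only 1 member difference of the mid against the low dose, that of H2-Aa, and none of high against low or high against mid, stayed called. Against OCA at 25 mg/kg, tropifexor at 0.9 mg/kg lowered H2-DMb1 further by -0.71 (-1.15 to -0.28), 1 of 10 class II genes against 7.15% of all genes lower and 4.3% higher, also lost with the unscaled SE; the doses of these compounds are not matched.

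Set against lean control, the mid dose alone of the 4 drug groups had no class II call (0 of 10 higher or lower by the Cuffdiff q, 2 at an unadjusted p under 0.05), where 11.7% of all genes were higher and 11.5% lower. H2-Aa was at 50.9 FPKM in lean control and 48.6 at the mid dose (log2 -0.07 ± 0.123, q = 0.785), and Cd74 at 119 and 102 (q = 0.178), in the authors' deposited table. A q above the threshold does not show that levels were equal. After the high dose Cd74, H2-Aa, H2-Ab1 and H2-Eb1 were still higher than in lean control, 4 of 10 against 12.2% of all genes, while no class II gene was lower, against 15.2%. H2-Aa was at 53 and 80.9 FPKM there (1.53-fold, q = 0.000346), whereas H2-DMa was at 3.99 and 3.85 (q = 0.915), in the authors' deposited table. OCA left 6 genes higher, against 10.3% of all genes, with H2-Aa at 54.1 and 125 FPKM (2.31-fold) in the authors' deposited table. The low dose left 7 higher, against 13.8%, with H2-Aa at 57.6 and 186 FPKM (3.22-fold) and H2-Oa, the DO alpha chain, at 0.323 and 0.862 (2.67-fold, q = 0.00724) in the authors' deposited table. OCA and the low dose left none lower, against 6.5% and 10.1% of all genes.

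**Figure D2:**
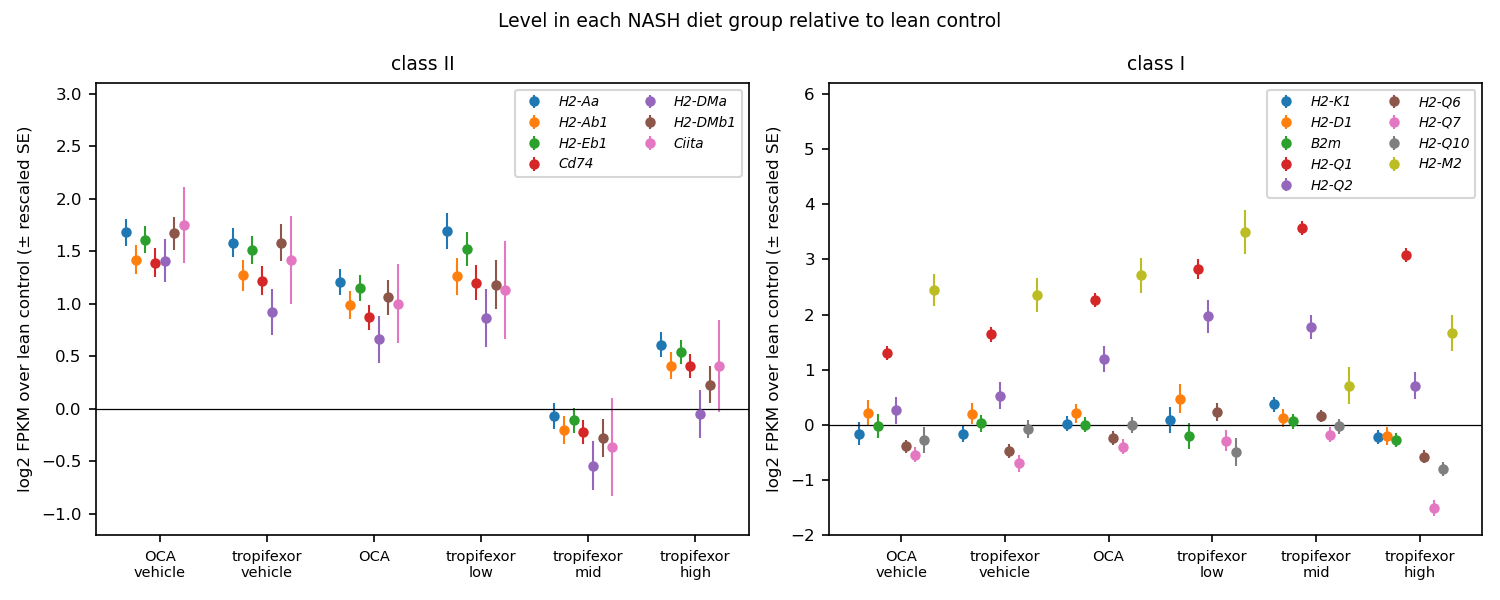
Log2 FPKM of each NASH diet group over lean control, for class II genes on the left and class I genes on the right, with the rescaled SE. The 7 class II genes plotted lie above 0 in the vehicle, OCA and low-dose groups and under 0 at the mid dose (H2-Aa -0.07), while H2-Q1 climbs from 1.3 in the OCA vehicle group to 3.57 at the mid dose.

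Leukocyte markers moved with class II in the same comparisons, and their part in the class II values was not tested. Of 11 macrophage markers, 10 rose in each diet comparison (medians 1.31 and 1.21; 11.4% and 12.1% of all genes), 5 fell with OCA (-0.51; 2.23%), 10 fell at the mid dose (-1.16; 15.7%) and 9 at the high dose (-0.68; 15.5%), while at the low dose Cd14 rose and none fell (-0.08). Their summed level was 203 and 519 FPKM in lean control and the OCA vehicle group, 204 and 502 in lean control and the tropifexor vehicle group, 553 and 410 for vehicle and OCA, 571 and 629 for vehicle and low dose, 499 and 238 for vehicle and mid dose, and 519 and 332 for vehicle and high dose. Adgre1, the F4/80 antigen of macrophages, was at 12.6 FPKM with vehicle and 5.62 at the mid dose in the authors' deposited table. The 5 pan-leukocyte markers all rose with diet and all fell at the mid dose (median -1.42), with 4 falling at the high dose (-0.83) and 2 with OCA (-0.51), and their summed level was 110 and 40.9 FPKM for vehicle and mid dose. Ptprc, the CD45 antigen, was at 6.19 FPKM with vehicle and 2.72 at the mid dose in the authors' deposited table.

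Of 9 dendritic cell markers tested, 3 and 5 rose under diet, 6 fell at the mid dose and 3 at the high dose, and none was called with OCA (1 at an unadjusted p under 0.05 in Cuffdiff). At the low dose 10 were tested and none was called (0 at an unadjusted p under 0.05 in Cuffdiff). Their summed level was 11.5 and 5.53 FPKM for vehicle and mid dose, and Itgax (CD11c) was at 3.52 FPKM with vehicle and 0.99 at the mid dose in the authors' deposited table. T cell markers rose in 7 and 5 of 9 under diet and fell in 6 with OCA, 6 at the mid dose and 4 at the high dose, with a summed level of 9.66 and 4.4 FPKM for vehicle and mid dose. NK cell markers rose in 3 of 4 and 1 of 3 tested under diet and fell in 2 with OCA, 3 at the mid dose and 1 at the high dose. B cell markers gave 1 call, the fall of Ighm at the low dose, where 7 were tested. In the other diet and drug comparisons 6 or 7 were tested and none was called. Of these, 2 had an unadjusted p under 0.05 in Cuffdiff at the mid dose and 0 in the rest. The B cell medians were 0.10 and 0.07 under diet, -0.33 with OCA and -0.07, -0.17 and 0.10 at the low, mid and high doses. Their summed level lay between 16.5 and 27.9 FPKM throughout. Of 6 resident Kupffer cell markers, 3 and 2 rose and 1 fell under diet, where Timd4 fell while Cd5l rose, 4 fell with OCA, 1 at the low dose, 3 at the mid dose and 1 at the high dose. Endothelial markers fell in 3 of 6 under each diet comparison, in 1 with OCA, in 1 at the low dose and in 4 at the mid and high doses. Of 8 hepatocyte markers, 1 and 5 fell under diet and 1 at the low dose. At the mid dose Cps1 rose and Ttr fell, and at the high dose 1 marker rose and 2 fell. Over all genes 11.4% and 12.1% were higher and 6.56% and 8.53% lower in the diet comparisons. With OCA 1.81% were higher and 2.23% lower, and at the low dose 6.03% and 5.2%. The mid dose gave 11.8% and 15.7%, the high dose 9.93% and 15.5%. The Kupffer count at the high dose, the hepatocyte counts at the mid dose and the higher hepatocyte count at the high dose lie near these shares. No count of 1 gene in these short lists is read as standing apart from them.

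**Figure D3:**
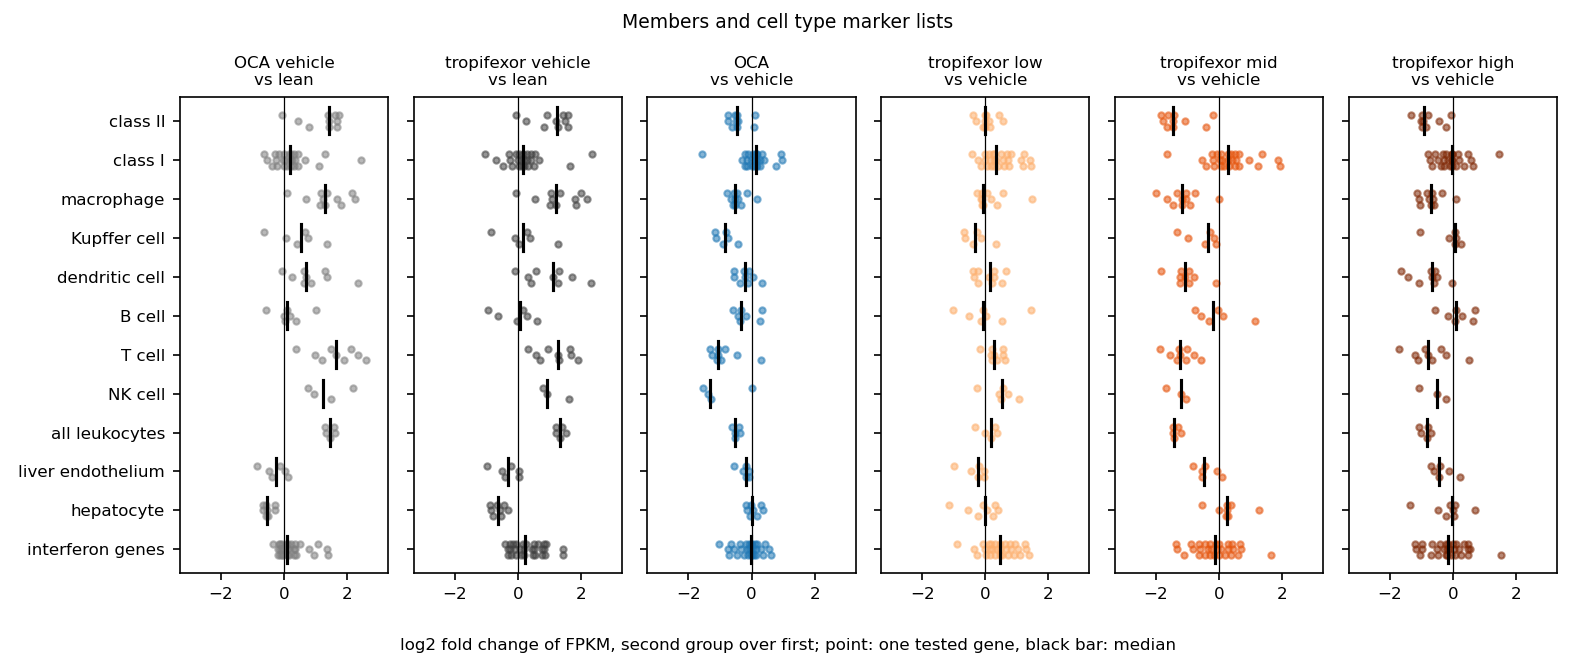
Log2 fold change of FPKM of each tested gene in the member classes and the cell type marker lists, one panel per comparison, with the median as a black bar. Class II (median -1.46) lies beside the macrophage (-1.16) and pan-leukocyte (-1.42) lists at the mid dose, while the B cell (-0.17) and hepatocyte (0.25) medians stay near 0.

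The genes whose 6 diet and drug effects lay nearest to those of H2-Ab1, among 10603 candidates, were Soat1 (root mean square distance 0.094 log2), AF251705, Cd48, Pkm, Lair1, Cd180, Cd68, Fcer1g, Csf2ra and Sla. Soat1 esterifies cholesterol, Cd68 is a macrophage lysosomal glycoprotein, and Fcer1g is the shared signalling chain of Fc receptors. For the median of 6 class II genes the nearest were Evi2a (0.093), Cd53, Fcer1g, Ly86, Nckap1l, Cd52, Itgb2, Pkm, Fcgr3 and Cd48. Cd52 and Cd53 also belong to the pan-leukocyte list. The 6 effects share groups and are a description, not replicates.

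Of 13 tested endosomal genes, 6 and 7 rose (11.4% and 12.1% of all genes) and 1 fell (6.56% and 8.53%) under diet, led by the tetraspanin Cd63, the invariant chain protease Ctss (cathepsin S) and the ubiquitin ligase March1. Ctss went from 31.1 to 104 FPKM in the OCA vehicle group and from 106 with vehicle to 36.2 at the mid dose in the authors' deposited tables. With OCA 3 fell, against 2.23% of all genes, led by March1 (1.5 to 0.795 FPKM in the authors' deposited table). At the low dose none was called (0 of 13, 3 at an unadjusted p under 0.05 in Cuffdiff), at the mid dose 7 fell and 1 rose (15.7% and 11.8% of all genes), and at the high dose 9 fell (15.5%). The list medians were 0.37 and 0.44 under diet, -0.04 with OCA and -0.02, -0.70 and -0.48 at the low, mid and high doses. Of 9 factors that bind class II promoters (RFX, NF-Y, CREB and their coactivators), none rose in the diet comparisons (11.4% and 12.1% of all genes). In both, 2 of them, Crebbp and Nfyb, fell (6.56% and 8.53%). None was called with OCA or the low dose (0 and 2 at an unadjusted p under 0.05 in Cuffdiff). The shares higher and lower over all genes there were 1.81% and 2.23% with OCA and 6.03% and 5.2% at the low dose. Nfyc rose at the mid dose, 1 of 9 against 11.8%. Rfx5 rose and Nfyb fell at the high dose, 1 of 9 each against 9.93% and 15.5%. Rfx5 was at 4.5 FPKM with vehicle and 7.56 at the high dose in the authors' deposited table.

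Of 8 tested molecules that a presenting cell shows beside the peptide, 7 and 6 rose under diet (11.4% and 12.1% of all genes). Cd40 was at 0.641 and 1.91 FPKM in the authors' deposited table for the OCA vehicle group. The summed level of all 11 listed genes was lower under diet, at 383 and 303 FPKM for lean control and OCA vehicle. It was 385 and 335 for lean control and tropifexor vehicle. Against vehicle it was 323 and 359 FPKM with OCA, 382 and 322 at the low dose, 334 and 435 at the mid dose and 347 and 378 at the high dose. Cd274 (PD-L1) fell with OCA from 2.51 to 1.51 FPKM, 1 of 8 against 2.23%, in the authors' deposited table. At the mid dose 4 fell and 1 rose (15.7% and 11.8% of all genes), with Cd276 going from 1.54 to 0.709 FPKM in the authors' deposited table. At the high dose 2 fell (Cd276 and Cd274) and none rose, against 15.5% and 9.93% of all genes. At the low dose Icosl rose, from 0.853 to 1.77 FPKM in the authors' deposited table, 1 of 8 against 6.03%.

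Class I was abundant. Its calls went both ways under diet and at the mid and high doses, and only upward with OCA and the low dose against vehicle. In lean liver B2m stood at 2630 FPKM, H2-Q10 at 1130, H2-K1 at 834 and H2-D1 at 245, against 128 for Cd74, in the authors' deposited table for the OCA vehicle group. In each diet comparison H2-M2, H2-M3 and H2-Q1 rose and H2-K2, H2-Q6 and H2-Q7 fell, 3 up and 3 down of 26 and of 25 tested, against 11.4% and 12.1% higher and 6.56% and 8.53% lower over all genes. The class I medians were 0.19 and 0.16, beside 0.02 and 0.01. OCA raised H2-Q1 and H2-Q2, 2 of 26 against 1.81%, and lowered none, against 2.23% (median 0.14). Low tropifexor raised 5 of 27, H2-M2, H2-Q1, H2-Q2, H2-Q4 and H2-Q6, against 6.03%, and lowered none, against 5.2% (median 0.35). The mid dose raised 7 of 27, H2-Bl, H2-K1, H2-Q1, H2-Q2, H2-Q6, H2-Q7 and H2-T23, against 11.8%, and lowered H2-M2 and H2-M3, against 15.7% (median 0.30). The high dose raised H2-Q1, H2-T23 and Tapbp and lowered H2-M2, H2-Q7 and H2-Q10, 3 and 3 of 25 against 9.93% and 15.5% (median -0.03, beside -0.05 over all genes). Under diet the counts of higher class I genes, and at the high dose both counts, lie near the shares over all genes.

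Of the classical heavy chains and B2m, only H2-K1 was called, at the mid dose. It was at 838 FPKM in lean control and 744 with tropifexor vehicle (log2 -0.17 ± 0.15, q = 0.52), and rose at the mid dose from 741 to 1080 (1.46-fold, log2 0.55 ± 0.157, q = 0.00156), in the authors' deposited tables. At the low dose it was at 848 and 1020 FPKM (q = 0.682) and at the high dose at 771 and 755 (q = 0.938) in the authors' deposited tables. H2-D1 was not called in any table: at the mid dose it was at 281 and 267 FPKM (q = 0.832), and at the high dose at 293 and 224 (q = 0.0968), in the authors' deposited tables. B2m was not called in any table either, and its lowest value against vehicle was at the high dose, 2800 and 2280 FPKM (log2 -0.30 ± 0.153, q = 0.157 in the authors' deposited table). The coactivator Nlrc5 stayed between 10.9 and 14.7 FPKM over all groups and tables and was never called.

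H2-Q10 encodes a class I molecule that the liver is known to secrete, and it was among the most abundant members. It was at 1140 and 1080 FPKM in lean control and tropifexor vehicle (q = 0.875) and at 992 and 1200 with OCA vehicle and OCA (q = 0.941) in the authors' deposited tables. At the mid dose it was at 1080 and 1120 FPKM (q = 0.892), and at the high dose it fell from 1120 to 685 (1.63-fold lower, log2 -0.71 ± 0.16, q = 0.000396), in the authors' deposited tables. The high dose also brought it under lean control, at 1090 and 630 FPKM (1.74-fold lower, q = 0.000346 in the authors' deposited table). The high-dose effect differed from the mid-dose effect by -0.76 (log2, 95% interval -1.21 to -0.31) and from that of OCA by -0.98 (-1.55 to -0.41), differences not called with the unscaled SE. At the low dose the log2 fold change of H2-Q10 was -0.41 and was not called. Its high-dose effect was not called different from this low-dose effect (-0.30, 95% interval -0.90 to 0.31). Of 25 class I genes tested, 3 were lower for high against mid dose and 4 for high tropifexor against OCA, and none higher. Over all genes 1.45% and 7.15% were lower, and 0.872% and 4.3% higher. Of the 50-base stretches of H2-Q10, 19.7% occur in another gene, most often H2-Q7, so reads may be split.

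H2-Q1, a neighbour in the Q region, rose in all 10 tables and in every drug group beyond its own diet rise. It went from 5.36 to 13.2 FPKM with diet in the OCA vehicle group and from 14 to 27.4 with OCA (1.96-fold, q = 0.00268) in the authors' deposited tables. Tropifexor took it from 19.1 to 43.8 FPKM at the low dose (2.3-fold), from 16.7 to 63.8 at the mid dose (3.83-fold, log2 1.94 ± 0.137) and from 17.3 to 47.8 at the high dose (2.76-fold) in the authors' deposited tables. The mid-dose effect was above the low-dose effect by 0.73 (log2, 0.29 to 1.18), 1 of 26 class I genes called higher, a share near the 3.69% of all genes. Against lean control H2-Q1 at the mid dose was at 4.99 and 59.1 FPKM, an 11.8-fold difference, in the authors' deposited table. H2-Q2 followed at lower levels, 0.967 and 1.84 FPKM with OCA, 1.25 and 3.39 at the low dose and 1.1 and 2.59 at the mid dose, but was at 1.14 and 1.3 at the high dose (q = 0.687), in the authors' deposited tables. Its high-dose effect lay under its low-dose effect by -1.25. For that difference 4 of 25 class I genes were lower and none higher, against 4.17% and 1.46% of all genes. Shared stretches make up 16.1% of H2-Q1 and 8.74% of H2-Q2.

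H2-Q6 and H2-Q7, which encode the Qa-2 antigen, went the other way under diet. H2-Q7 went from 33.8 to 20.9 FPKM (1.62-fold lower, q = 0.000507) and H2-Q6 from 18.3 to 13.2 (1.39-fold lower, q = 0.00325) in the tropifexor vehicle comparison, in the authors' deposited tables. The mid dose raised H2-Q7 from 20.8 to 29.9 FPKM (1.44-fold, q = 0.0029) and H2-Q6 from 13.1 to 20.4 (1.56-fold, q = 0.000361), while the high dose lowered H2-Q7 from 21.6 to 12.4 (1.74-fold lower, q = 0.000396), in the authors' deposited tables. The high-dose effect lay under the mid-dose effect by -1.33 (log2, -1.75 to -0.91) for H2-Q7 and -0.73 (-1.09 to -0.37) for H2-Q6, and under the low-dose effect by -1.21 and -0.81. High tropifexor also lay under OCA in H2-Q7 (-0.94) and H2-Q5 (-0.87). None of these differences was called with the unscaled SE. Of 25 class I genes, 3 were lower for high against mid, 4 for high against low and 4 for high tropifexor against OCA. The lower shares of all genes were 1.45%, 4.17% and 7.15%, and no class I gene was higher in these differences. H2-Q4 rose at the low dose, from 23.2 to 39.1 FPKM (1.69-fold, q = 0.000968 in the authors' deposited table), and was called against no other vehicle. Shared stretches amount to 28.4% of H2-Q7, 32% of H2-Q6, 35.4% of H2-Q5 and 22% of H2-Q4, so single values in the Q family are uncertain.

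**Figure D4:**
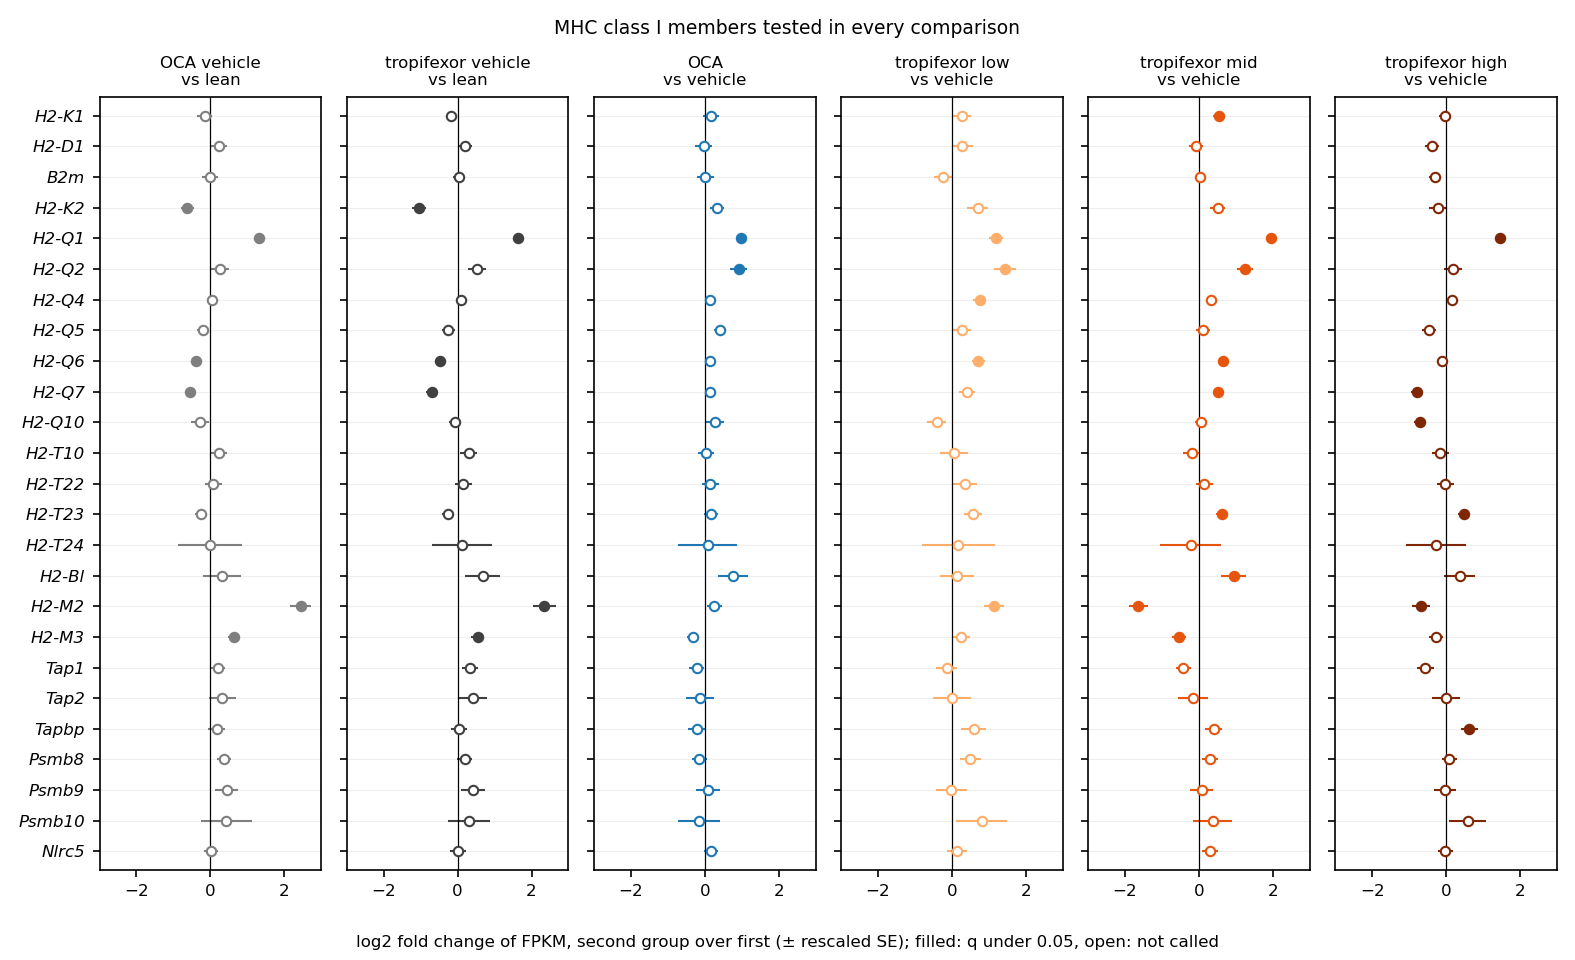
Log2 fold change of FPKM, second group over first, for the tested class I genes in the diet and drug comparisons, with the rescaled SE and filled points for q under 0.05. H2-Q1 lies right of 0 in every panel, from 0.97 to 1.94, and H2-M2 moves from 2.44 and 2.35 under diet to 1.14 at the low and -1.64 at the mid dose.

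H2-M2, a nonclassical gene of the M region, had the largest diet change of the class I members called, from 0.276 to 1.5 FPKM (5.43-fold, log2 2.44 ± 0.292) and from 0.278 to 1.42 (5.11-fold), in the authors' deposited tables. It rose further at the low dose, from 1.61 to 3.56 FPKM (2.21-fold, q = 0.0033), and fell at the mid dose from 1.41 to 0.453 (3.12-fold lower, q = 0.000361) and at the high dose from 1.47 to 0.923 (1.59-fold lower, q = 0.0421), in the authors' deposited tables. Its mid-dose effect lay under its low-dose effect by -2.78 (log2, -3.53 to -2.03). Of 26 class I genes H2-M2 alone was lower there, a share under the 6.57% of all genes. Its high-dose effect lay under the low-dose effect by -1.81 (4 of 25 class I genes lower, 4.17% of all genes). Against OCA its high-dose effect was lower by -0.93 (4 of 25 class I genes lower, 7.15% of all genes). H2-M3, which presents formylated bacterial and mitochondrial peptides, went from 1.99 to 3.13 FPKM with diet (OCA vehicle, q = 0.0011) and from 2.88 to 1.99 at the mid dose (q = 0.016) in the authors' deposited tables. Its promoter window is one of the 5 class I windows with an X box match. H2-K2, annotated as a transcribed pseudogene, fell with diet from 3.63 to 1.77 FPKM (2.05-fold lower, q = 0.000507) and was called in no comparison of a drug with its vehicle, in the authors' deposited tables. H2-T23, whose product Qa-1 is the ligand of an inhibitory NK cell receptor, rose at the mid dose from 63.8 to 98 FPKM (1.54-fold, q = 0.000987) and at the high dose from 66.4 to 93.1 (1.4-fold, q = 0.0167) in the authors' deposited tables. It shares a deposited locus with H2-T22 and H2-T24, neither of which was called in these comparisons.

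Against lean control, OCA left H2-Bl, H2-M2, H2-Q1 and H2-Q2 higher and H2-Q7 lower, 4 and 1 of 25 against 10.3% and 6.5% of all genes. The low dose left H2-M2, H2-M3, H2-Q1, H2-Q2 and H2-Q4 higher and none lower, 5 of 27 against 13.8% (10.1% lower). The mid dose left 5 of 26 higher, H2-Bl, H2-K1, H2-Q1, H2-Q2 and H2-Q4, and H2-K2 lower, against 11.7% and 11.5%. The high dose left 5 of 25 higher, H2-Bl, H2-M2, H2-Q1, H2-Q2 and Tapbp, and 5 lower, H2-K2, H2-Q5, H2-Q6, H2-Q7 and H2-Q10, against 12.2% and 15.2%.

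The peptide supply of class I was called once against a vehicle. Tapbp rose at the high dose from 50.2 to 77.6 FPKM (1.55-fold, log2 0.63 ± 0.228, q = 0.0271), and was at 55.2 and 83.2 at the low dose (q = 0.321), in the authors' deposited tables. Psmb8 was at 24.5 and 30.1 FPKM (q = 0.353), Psmb9 at 29.4 and 30.9 (q = 0.925), Psmb10 at 18.4 and 23.7 (q = 0.706), Tap1 at 21.9 and 16.4 (q = 0.172) and Tap2 at 19.8 and 17.7 (q = 0.789) for vehicle and the mid dose in the authors' deposited table. These 5 genes were called in none of the 10 tables. Psmb9 and Tap1 overlap on opposite strands and share 1 deposited locus, as Psmb8 and Tap2 share another, and no source used here says if fragments were counted by strand. Of 16 further loading partners, 0 were called under diet in the OCA vehicle group (1 at an unadjusted p under 0.05 in Cuffdiff), under diet in the tropifexor vehicle group 1 rose against 2 that fell, 2 fell with OCA, 1 rose and 1 fell at the low dose, 2 rose and 1 fell at the mid dose, and 1 rose and 5 fell at the high dose. Over all genes the higher and lower shares were 11.4% and 6.56% for diet with OCA vehicle, 12.1% and 8.53% with tropifexor vehicle, 1.81% and 2.23% for OCA, 6.03% and 5.2% for the low, 11.8% and 15.7% for the mid and 9.93% and 15.5% for the high dose. Erap1, which trims peptides in the endoplasmic reticulum, fell with diet from 29.8 to 22.7 FPKM in the tropifexor vehicle group and rose at the mid dose from 22.6 to 32.9 in the authors' deposited tables. The chaperone Hspa5 fell with OCA, from 351 to 209 FPKM, and at the mid dose, from 356 to 202, in the authors' deposited tables.

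Interferons are the classical inducers of MHC genes. Of 30 tested genes of interferon signalling and response, 5 and 10 rose, against 11.4% and 12.1% of all genes, and none fell, against 6.56% and 8.53%, under diet (medians 0.11 and 0.23), led in both by Cxcl10, a chemokine, at 5.69 and 14.8 FPKM in the authors' deposited table for the OCA vehicle group. OCA raised 2 and lowered 2 (1.81% and 2.23% of all genes). The low dose raised 9 and lowered 1 (6.03% and 5.2%), with a median of 0.47 beside -0.00 over all genes, led by the antiviral gene Mx1 (1.9 to 4.97 FPKM in the authors' deposited table). The mid dose raised 6 and lowered 7 (11.8% and 15.7%), and the high dose raised 4 and lowered 8 (9.93% and 15.5%), with Cxcl9 falling from 13.3 to 5.24 FPKM at the mid dose in the authors' deposited table. Ifng itself was below 0.1 FPKM in every one of these comparisons and was not tested.

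Of the MHC-like genes outside the H2 symbols, 9 were tested. Procr rose and Mr1, which presents vitamin B metabolites, fell in both diet comparisons, and Raet1d fell in the OCA vehicle comparison. These were 1 of 9 higher in each, against 11.4% and 12.1% of all genes, and 2 and 1 lower, against 6.56% and 8.53%. No such gene was called with OCA (2 at an unadjusted p under 0.05 in Cuffdiff), against 1.81% of all genes higher and 2.23% lower. Fcgrt, the albumin and IgG receptor, fell at the low dose, 1 of 9 against 5.2%. The mid dose lowered 3 (15.7% of all genes) and the high dose 4 (15.5%), most of all the NKG2D ligand Raet1d, from 4.78 to 1.11 and from 4.98 to 0.335 FPKM in the authors' deposited tables. H2-Ke6, the steroid dehydrogenase named for its position in the MHC, was not called in any table and was at 50.4 and 63.2 FPKM (q = 0.31) for vehicle and the mid dose in the authors' deposited table; 96.3% of its stretches also occur in a readthrough gene, so its values are uncertain.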

How the data were processed

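RNA was extracted with Trizol and stranded mRNA libraries were made with a TruSeq kit, per the labels' protocols. STAR 2.5.1b, Cufflinks 2.2.1, Cuffdiff, Cuffnorm and bcl2fastq are listed with build GRCm38 per the submitters' processing notes, with no role stated for any of them. The 10 tables hold the authors' deposited group FPKM values. The log2 fold change, the test statistic (a score), and the p-value and q-value are the authors' deposited Cuffdiff output, per the file headers. A gene was tested where its status was OK, and called at q under 0.05, which matched the authors' flag in every table. Between 15208 and 16144 genes were tested per table. The depth is unknown, since low FPKM values were continuous. Any spread between samples behind the p-values is that of samples which the labels number as replicates.

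Each table's vehicle column matched that of its own vehicle group after 1 constant, with a median deviation of at most 0.000821 (log2), against at least 0.0778 for the other. Differences between effects used the fold change over its statistic as SE, divided by the median ratio of the normal z of the deposited p to the statistic (2.03 to 2.05), a normal test and Benjamini-Hochberg adjustment over genes tested in both tables. The script was tested on simulated data with noise drawn from the rescaled SE, which does not bear on which SE describes the animals. Intervals are 95%. Members were named by the rule that every tested member may be named, with full values for the main chains, regulators and peptide supply. From each other list the 3 called genes with the largest change could be named; Adgre1, Ptprc, Rfx5, Cd274 and Ifng, and any other gene outside these rules, were chosen with values seen. Members and lists were chosen with earlier results of these data known. Nearest genes had FPKM of at least 1 in both groups of every table. Alternatives were stricter thresholds, an FPKM minimum of 1, readjustment, centring, pseudocounts of 0.1 and 1, leaving out gene families, and the unscaled SE. Python 3.11.15, pandas 2.3.3, numpy 2.4.6 and scipy 1.17.1 were used.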

Additional observations from a re-analysis of the deposited data

Results flagged for a closer look

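Effects of 2 groups differed, by the test of the difference itself, in the members below; all values are log2 differences with the rescaled SE. They rest on that SE: with the unscaled one, that of H2-Aa between mid and low dose stayed called and none of the others did.

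For the high against the low tropifexor dose the differences were -0.78 in Cd74, -1.06 in H2-Aa, -0.84 in H2-Ab1, -0.94 in H2-DMb1 and -0.97 in H2-Eb1 among class II genes, and -1.81 in H2-M2, -1.25 in H2-Q2, -0.81 in H2-Q6 and -1.21 in H2-Q7 among class I genes. For the mid against the low dose they were -1.42 in Cd74, -1.75 in H2-Aa, -1.45 in H2-Ab1, -1.40 in H2-DMa, -1.46 in H2-DMb1, -1.62 in H2-Eb1, -2.78 in H2-M2 and 0.73 in H2-Q1. For the high against the mid dose they were 0.64 in Cd74, 0.69 in H2-Aa, 0.66 in H2-Eb1, -0.76 in H2-Q10, -0.73 in H2-Q6 and -1.33 in H2-Q7. For high tropifexor against OCA, whose doses are not matched, they were -0.71 in H2-DMb1, -0.93 in H2-M2, -0.98 in H2-Q10, -0.87 in H2-Q5 and -0.94 in H2-Q7. The class II differences of high from low and of high from mid dose have opposite signs, with the mid dose lowest.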

How the results depend on the processing

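Centring on the median gene, an FPKM minimum of 1 and readjustment over genes with FPKM of at least 1 left every count of called members within 1.5 times its value, and no result reversed. With q under 0.01 the class II calls for OCA fell to 3, the class I calls for high tropifexor to 3 and the class I calls for OCA against lean control to 3. With an absolute log2 fold of at least 1 in addition, class II calls were 0 for OCA, 1 for high tropifexor, 3 for OCA against lean control and 0 for the high dose against lean control, because smaller changes no longer count. Class I calls were then 2 and 3 for the diet in the OCA and tropifexor vehicle groups, 0 for OCA, 3, 3 and 1 for the low, mid and high doses, and 3, 3 and 5 for the same doses against lean control. Without the H2-Q, H2-T and H2-M families, whose members share sequence, class I calls were 1 and 1 for diet, 0 for OCA, 0, 2 and 1 for the low, mid and high doses, and against lean control 1 for OCA and 0, 3 and 3 for the doses. With the unscaled SE, member differences numbered 0 for high against low, 0 for high against OCA, 1 (H2-Aa) for mid against low and 0 for high against mid. A pseudocount of 1 moved 10 of 108 single fold changes, in the low genes Ciita, H2-DMa and H2-DMb1, and a pseudocount of 0.1 moved none. No paired analysis was possible because the tables hold 1 value per group, and for the same reason no replicate could be left out. The depth behind each FPKM is unknown, so members under 1 FPKM, 21 of 54 in every group and table, are the least certain.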
